A study of Caenorhabditis elegans with 12 samples.

Results

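The response of wild-type worms to ultraviolet-B (UV-B) light was measured by comparing the RNA of N2 larvae 6 h after irradiation with that of mock-treated N2 larvae, across all genes. The comparison used 6 libraries of the 12 in the series, and 12913 protein-coding genes of 46245 gene identifiers were tested. N2 is the laboratory wild type of the nematode Caenorhabditis elegans. The larvae were synchronized at the first stage (L1), fed for 3 h, given 60 mJ/cm2 of UV-B or a mock treatment, and collected 6 h later. The group N2 mock holds the libraries numbered 1, 2 and 4, and the group N2 UV those numbered 1, 2 and 3. N2 carries no introduced allele. The other 6 libraries, 3 mock-treated and 3 irradiated, come from larvae with the lin-52(n771) allele, which alters a subunit of the repressor complex DREAM. They shared the estimate of the spread and served to test where the responses of the strains differ. Each library is RNA of a pool of whole animals, so no cell type is seen alone. The stage of the larvae at collection was not recorded in the values used here, and a delay of development cannot be told apart from other changes between mock and irradiated larvae of the same age.

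UV-B is absorbed by DNA and joins neighbouring pyrimidines into lesions that block RNA polymerases and replication forks. Nucleotide excision repair removes them. It is started either by XPC-1, which surveys the whole genome, or by CSB-1 and CSA-1 at a stalled RNA polymerase, and continues with TFIIH, XPA-1 and nucleases that cut out the damaged strand. L1 larvae grow, divide a small set of somatic cells and build a new cuticle before each moult. The genes of the cuticle and of moulting are switched on and off once in every larval stage.

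The 6 N2 libraries were close in depth and composition. Low values placed their depth between 0.938 and 1.21 times that of N2 mock 1, read totals being unknown, and the correlation of log2 values across genes was 0.982 to 0.985 within a group and 0.888 to 0.899 between groups. Protein-coding genes at 1 FPKM or more (fragments per kilobase of transcript, scaled to the mapped fragments of the library) numbered 12475 to 12555 in mock and 12782 to 12854 after UV-B. Ribosomal RNA took 15.6% to 16.2% of the FPKM in mock and 11.6% to 12.6% after UV-B, and transcripts of the mitochondrial genome 0.966%, 0.912% and 0.899% against 0.739%, 0.734% and 0.739% of the protein-coding FPKM. Neither share overlapped between the groups (two-sided exact permutation test, p = 0.1 for each, the smallest that 3 against 3 libraries allow). Markers of body wall muscle, pharynx, intestine, epidermis, neurons and germline were present, and of 8 markers of adults, sperm and early embryos 6 were below 1 FPKM in both groups. The intestinal actin gene act-5 was listed at 0 in all 6 libraries.

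UV-B was followed by changes in most of the expressed genes. Of 12913 genes 4723 were higher (36.6%) and 4782 lower (37.0%) after UV-B, 73.6% in all (limma with Benjamini-Hochberg adjustment, adjusted p below 0.05), and in 76.6% of the genes the 3 irradiated libraries did not overlap the 3 mock libraries. Most changes were small. The median absolute log2 change was 0.47 over all tested genes, the median SE was 0.084, and 46.2% of the called genes changed by less than 1.5-fold. At least 1.5-fold higher were 2676 genes (20.7%) and at least 1.5-fold lower 2440 (18.9%). The counts were 1452 and 1003 at 2-fold, and 384 and 158 at 4-fold. Log2 changes are differences of log2(FPKM + 0.5) given with their SE, which understate the change of low genes, and called means past the adjusted p. Because the libraries were scaled to a common middle, a rise or fall is relative to the median gene. Counts of lists and families below are to be read beside 36.6% of all tested genes higher and 37.0% lower. The filter on low values averaged mock and irradiated libraries, so a gene low in mock could pass by its level after UV-B. In lists of low genes this can raise the share that rose and the median.

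**Figure D1:**
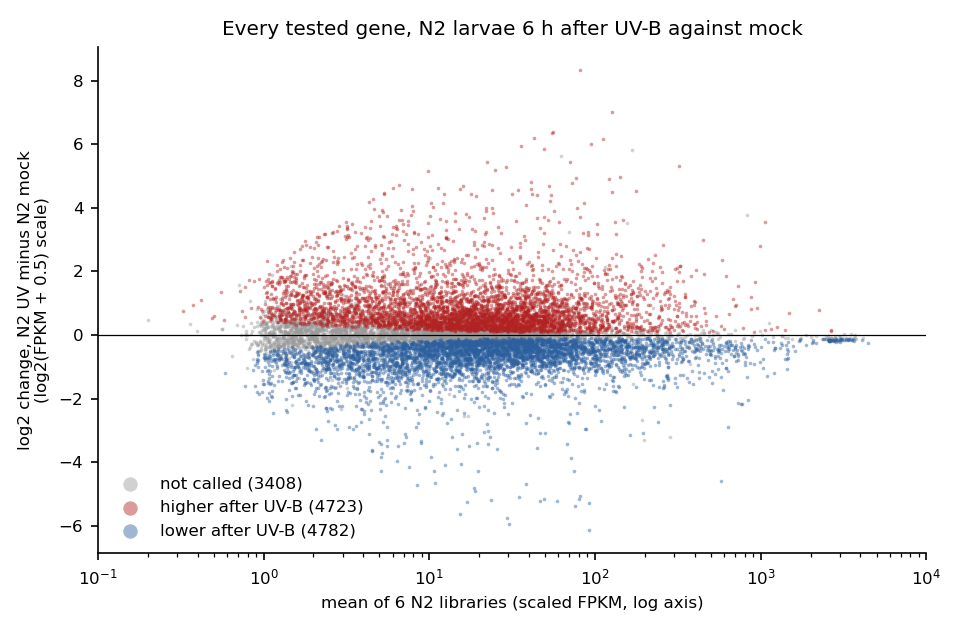
Log2 change of each of 12913 tested genes in N2 larvae after UV-B (y axis) against its mean over the 6 N2 libraries in scaled FPKM (log x axis). Red points are the 4723 genes called higher, blue the 4782 called lower and grey the 3408 not called, and both colours reach across the whole range of levels.

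Genes that build the cuticle fell furthest. Among genes averaging 5 FPKM or more over the 6 libraries, no library at 0 and no overlap between the groups, the 12 largest decreases were those of dpy-7, wrt-10, dpy-3, noah-2, dao-2, mlt-11, F44E2.4, fbn-1, lpr-3, sym-1, mlt-8 and lpr-6. The collagen gene dpy-7, which serves the annular furrows of the cuticle and lies on chromosome X from 7536467 to 7537792 in the WBcel235 assembly, was at 48.4, 72.02 and 59.6 FPKM in mock and at 0.188, 0.629 and 0.674 after UV-B. All 3 irradiated libraries were far below every mock library, a log2 change of -5.94 ± 0.32 (limma adjusted p = 1.28e-08). Its partner collagen gene dpy-3 was at 23.4, 41.9 and 26.5 FPKM in mock and at 0.0779, 0.0977 and 0.167 after UV-B (-5.62 ± 0.26). The hedgehog-related gene wrt-10 was at 45.9, 74.6 and 53.1 FPKM in mock and at 0.213, 1.07 and 0.533 after UV-B (-5.77 ± 0.38). The naming rule admits only genes in which the groups did not overlap.

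The temporary matrix that shapes a new cuticle before a moult was affected in the same direction. noah-2, which encodes a zona pellucida domain protein of that matrix, was at 134, 163 and 146 FPKM in mock and at 2.85, 2.83 and 3.59 after UV-B (-5.37 ± 0.21, limma adjusted p = 9.08e-10). The fibrillin-like gene fbn-1 was at 103, 131 and 111 FPKM in mock and 2.26, 2.96 and 2.55 after UV-B (-5.22 ± 0.22), and the secreted lipocalin gene lpr-3 at 37.5, 56.5 and 45.6 in mock and 0.627, 0.953 and 0.781 after UV-B (-5.18 ± 0.23). Of 33 tested genes of the precuticle and apical matrix 28 fell and 2 rose, 84.8% lower beside 37.0% of all genes, with a median of -1.37 against 0.00 over all tested genes. The 2 that rose were egg-6 (0.92 ± 0.14), which encodes a leucine-rich repeat protein of the same matrix, and cutl-14 (1.33 ± 0.24). Both stood low, with means after UV-B of 7.12 and 3.21 FPKM. At a minimum mean of 5 FPKM, where fewer members were tested, 0 rose, and with no filter 6.

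**Figure D2:**
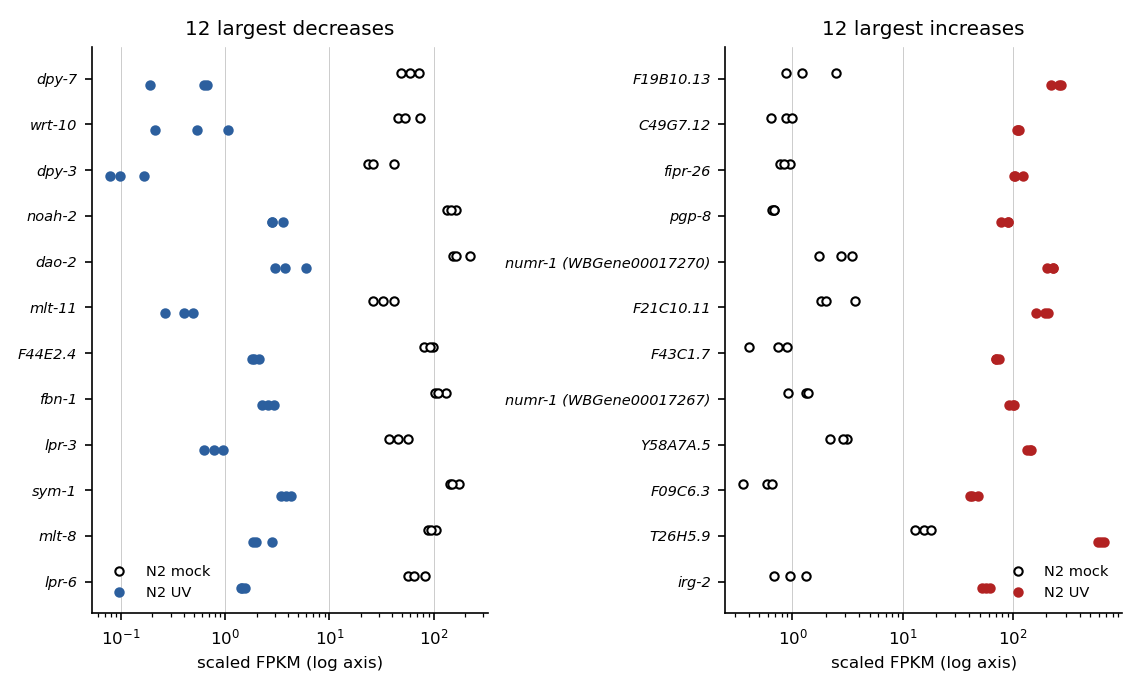
Scaled FPKM (log x axis) of the 12 genes with the largest decrease (left) and the 12 with the largest increase (right) by the naming rule. Open circles are the 3 N2 mock libraries and filled circles the 3 N2 UV libraries. They do not meet in any of the 24 genes, since the naming rule requires it. The symbol numr-1 belongs to a pair of gene identifiers.

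Not all collagens moved together. Of 6 annular furrow collagens 5 fell, with a median of -4.37, while dpy-8 was at 1.33 FPKM in mock and 1.34 after UV-B and was not called. Of 64 tested col genes 21 rose and 29 fell (median -0.21), shares of 32.8% and 45.3% that stand close to those of all genes, and the members ran from -4.60 to 3.50. The member that fell the most, col-149, was at 1030.0, 1192 and 1111 FPKM in mock and at 46.1, 43.6 and 45.95 after UV-B (-4.60 ± 0.23). In the opposite direction col-107 was at 19.1, 14.9 and 15.1 FPKM in mock and at 179, 187 and 204 after UV-B (3.50 ± 0.14). The libraries of a group lay close together beside these differences. Of 7 other named cuticle collagens 3 fell and 0 rose, rol-8 (-3.39 ± 0.17), sqt-1 (-1.85 ± 0.37) and dpy-17 (-0.64 ± 0.20, not called without N2 UV 3), and 1 rose with FPKM as deposited, with equal sums and without N2 mock 4 or N2 UV 1. With no filter on low values 37 col genes rose, and at a minimum mean of 5 FPKM, where fewer were tested, 9.

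Among genes whose products modify and trim collagens, 8 of 14 fell and 2 rose (median -0.47), 57.1% lower beside 37.0% of all genes. The prolyl hydroxylase genes dpy-18 (-1.71 ± 0.06) and phy-2 (-1.70 ± 0.08), the thioredoxin-like gene dpy-11 (-1.61 ± 0.06) and the lysyl hydroxylase gene let-268 (-1.59 ± 0.11) led the decreases. The astacin protease gene dpy-31, whose product trims procollagens, was at 40.3, 39.2 and 40.3 FPKM in mock and at 71.03, 71.7 and 71.1 after UV-B, a rise of 0.83 ± 0.05.

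The transcription factors and effectors of the moulting cycle were split. Of 26 tested genes 16 fell and 6 rose (median -1.0), 61.5% lower and 23.1% higher. The nuclear receptor gene nhr-23, a driver of the moulting cycle, was at 17.8, 19.6 and 20.1 FPKM in mock and at 3.495, 2.902 and 3.07 after UV-B (-2.43 ± 0.10, limma adjusted p = 1.62e-09). The Period homolog lin-42, whose level oscillates with the moults, was at 9.98, 13.9 and 13.2 FPKM in mock and at 0.745, 0.496 and 0.697 after UV-B (-3.48 ± 0.17). The effectors mlt-11 (-5.25 ± 0.26) and mlt-8 (-5.17 ± 0.21) fell further, and acn-1, an ACE-like gene needed for moulting, fell as well (-3.21 ± 0.13). The 6 members that rose were the transcription factor genes grh-1, nhr-41 and nhr-25, the kinase genes nekl-2 and nekl-3, and ifc-2. The Grainyhead gene grh-1 was at 7.88, 7.804 and 9.76 FPKM in mock and at 14.5, 16.5 and 16.5 after UV-B (0.87 ± 0.09). Hedgehog-related and patched-related genes, several of which act in the epidermis at the moult, had 24 of 38 lower and 10 higher (median -0.61), led by wrt-10, ptr-4 (-4.90 ± 0.19), ptr-10 (-4.15 ± 0.15) and ptr-25 (-3.21 ± 0.12). Of 8 heterochronic genes, which time larval fates, 5 fell and none rose, lin-42 being followed by daf-12 (-0.76 ± 0.06) and lin-41 (-0.33 ± 0.05). The TGF-beta list had 7 higher and 6 lower of 17, with lon-1, a secreted regulator of body size, at -2.27 ± 0.11 and the Smad gene sma-4 at 1.35 ± 0.08.

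The largest increases were those of genes at low levels without UV-B, which a ranking by log2 change with a minimum mean over both groups favours. By the same rule the 12 were F19B10.13, C49G7.12, fipr-26, pgp-8, a pair of identifiers that share the symbol numr-1, F21C10.11, F43C1.7, Y58A7A.5, F09C6.3, T26H5.9 and irg-2. F19B10.13 was at 1.21, 0.881 and 2.46 FPKM in mock and at 222, 259 and 270.1 after UV-B (7.03 ± 0.24, limma adjusted p = 4.04e-10). fipr-26, a gene related to peptides induced by fungal infection, was at 0.944, 0.763 and 0.844 FPKM in mock and at 102, 105 and 122 after UV-B (6.35 ± 0.10). The P-glycoprotein gene pgp-8, of a family of membrane pumps, was at 0.675, 0.650 and 0.673 FPKM in mock and at 77.7, 89.8 and 89.1 after UV-B (6.20 ± 0.07). In all 3 genes every irradiated library was far above every mock library, where the rule itself required no overlap.

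T26H5.9 reached the highest level of the 12. It was at 12.9, 15.4 and 18.1 FPKM in mock and at 587, 667 and 629 after UV-B (5.31 ± 0.20). The infection-response gene irg-2 was at 0.683, 0.957 and 1.34 FPKM in mock and at 52.2, 62.3 and 57.3 after UV-B (5.29 ± 0.18). The metal-responsive genes called numr-1 rose by 6.18 ± 0.19 and 5.86 ± 0.11, and as a near-identical pair their fragments may have been divided between them by the counting. A further 12 tested genes were listed at 0 in all 3 mock libraries and above 0 in all 3 irradiated ones, and 2, F39E9.14 and nhr-265, the reverse. B0563.9 was listed at 0 in mock and was at 139, 176 and 171 FPKM after UV-B, and no fold is given against 0. The antimicrobial peptide gene cnc-11 was also listed at 0 in mock and was at 10.8, 18.6 and 10.2 FPKM after UV-B.

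**Figure D3:**
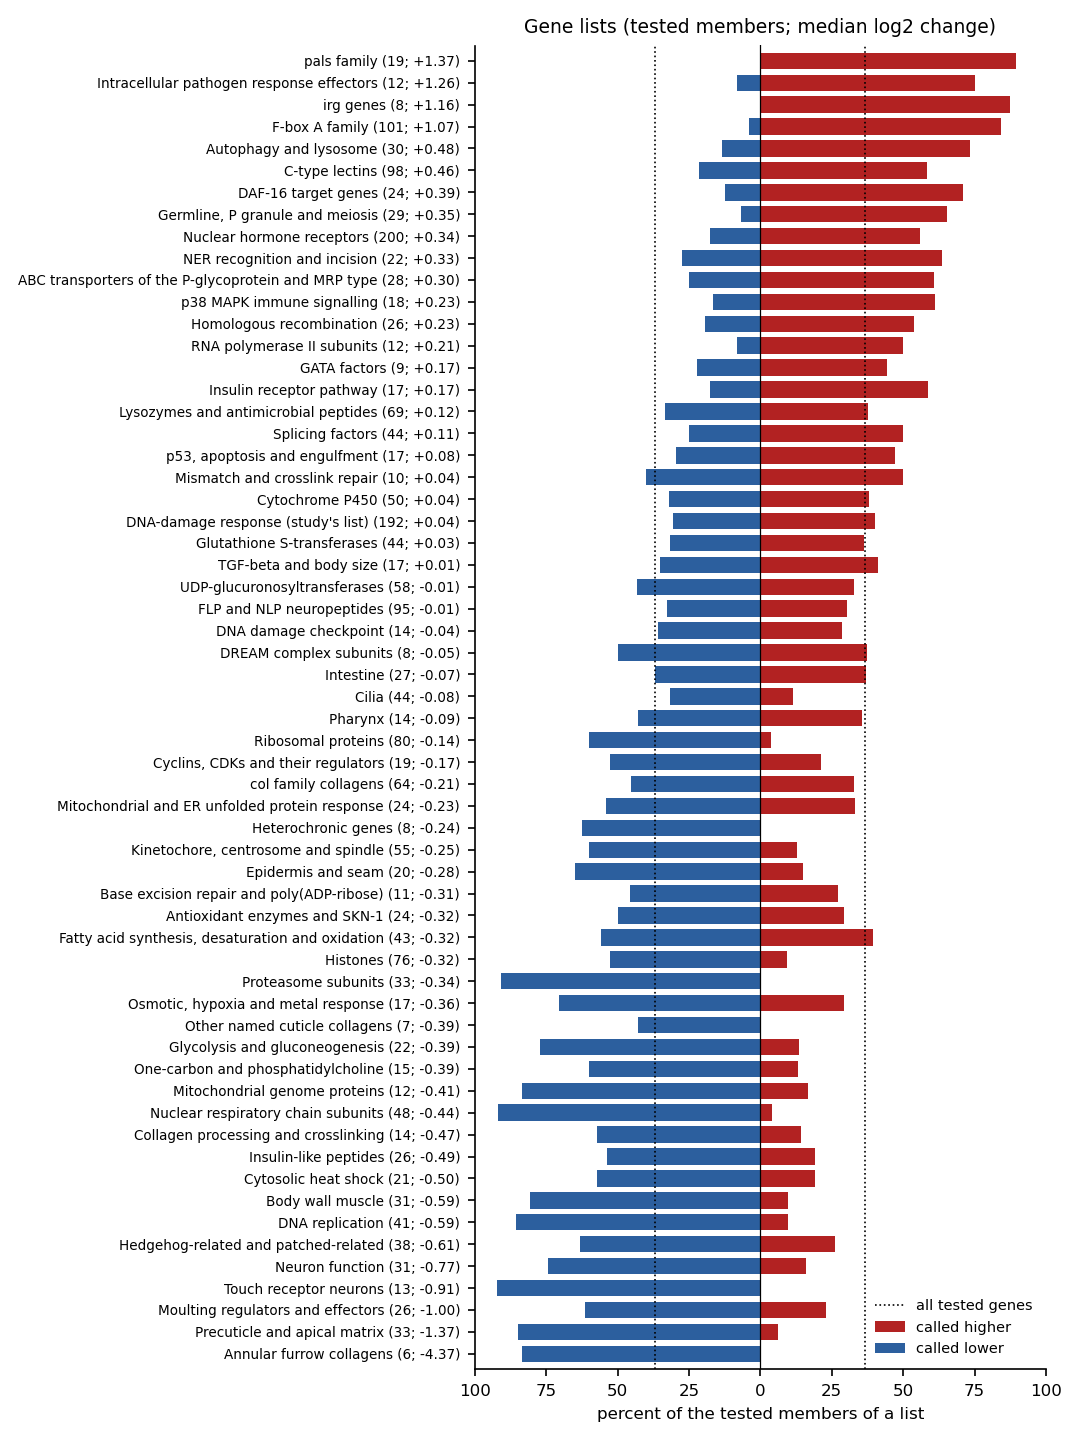
Percent of the tested members of each gene list that were called higher (red, to the right) or lower (blue, to the left) in N2 after UV-B, for lists with at least 6 tested members, ordered by the median log2 change given with the number of members beside each name. Dotted lines mark all tested genes, 36.6% higher and 37.0% lower.

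Genes known from infection were among those that rose as groups. Of 19 tested pals genes, a family of unknown biochemical function of which many members rise on infection by microsporidia and viruses, 17 rose and 0 fell (median 1.37, against 36.6% of all genes higher). Members of this family are similar in sequence, and at a minimum mean of 5 FPKM, where fewer were tested, 6 rose. Of 38 listed members 19 passed the filter, which a gene low in mock could pass by its level after UV-B. In N2 mock pals-32 averaged 0.595 FPKM and pals-6 0.640, so the filter may have raised the share that rose and the median. The highest levels among those that rose were those of pals-23, at 22.1, 22.1 and 21.5 FPKM in mock and 61.7, 63.95 and 62.7 after UV-B (1.501 ± 0.05), and of pals-24 (1.74 ± 0.12). The largest change was that of pals-32 (2.32 ± 0.25). pals-22, a repressor of this response, was at 0.25 ± 0.12 and was not called, and its antagonist pals-25 was at 0.26 ± 0.07. Of 12 other genes of the same response 9 rose and 1 fell. The cullin gene cul-6, which forms a ubiquitin ligase, was at 2.04, 2.45 and 2.49 FPKM in mock and at 19.3, 21.3 and 19.9 after UV-B (2.87 ± 0.10, limma adjusted p = 3.52e-10). The F-box gene fbxa-158 (2.75 ± 0.21), ddn-1 (2.64 ± 0.17) and B0507.8 (2.42 ± 0.07) followed, and the RIG-I-like receptor gene drh-1 was the member that fell (-0.25 ± 0.07).

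Most F-box A genes rose. F-box proteins choose substrates for cullin ubiquitin ligases. Of 101 tested members 85 rose, 4 fell and 12 were not called, a share of 84.2% higher beside 36.6% of all genes, and their median was 1.07. In fbxa-50 the values were 0.818, 0.744 and 0.932 FPKM in mock and 24.2, 24.99 and 20.6 after UV-B (4.16 ± 0.17), and in fbxa-37 9.51, 9.39 and 8.1 in mock and 108, 115 and 113 after UV-B (3.57 ± 0.08). The levels of both groups were separate in each. Many members stood low, and at a minimum mean of 5 FPKM, where fewer members were tested, 40 rose. Of 170 listed members 101 passed the filter, and those low in mock could pass by their level after UV-B, which may have raised the share that rose. Close copies in this family may share fragments.

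Other immune genes were mixed. Of 8 irg genes 7 rose and none fell. irg-5 was at 14.6, 15.1 and 12.8 FPKM in mock and at 313, 357 and 347 after UV-B (4.53 ± 0.10), and irg-1 at 4.77, 2.98 and 4.05 in mock and 38.8, 40.5 and 38.99 after UV-B (3.19 ± 0.26). The bZIP factor gene zip-2, which is needed for the induction of irg-1 when translation is blocked, was at 431, 434 and 466 FPKM in mock and at 1345, 1473 and 1402 after UV-B (1.66 ± 0.05), and cebp-1, another bZIP gene, at 39.6, 40.1 and 38.3 in mock and 202, 219 and 219 after UV-B (2.43 ± 0.07). The p38 kinase gene pmk-1 itself rose by little (0.17 ± 0.05, not called under quantile normalization). Of 18 genes of its pathway 11 rose (61.1%), tir-1 (1.43 ± 0.06) and fshr-1 (1.13 ± 0.07) among them, while 3 fell (16.7%). C-type lectins had 57 of 98 higher and 21 lower (median 0.46), 58.2% and 21.4% beside 36.6% and 37.0% of all genes. At the lower end stood clec-170 (-1.81 ± 0.15) and clec-1 (-1.79 ± 0.08), and at the upper end clec-74 (3.27 ± 0.25), which was listed at 0 in N2 mock 2, and clec-3 (2.75 ± 0.12). Lysozymes and antimicrobial peptides were close to even, with 26 higher and 23 lower of 69. The fungus-induced genes fipr-24 (3.56 ± 0.14) and fipr-26 rose, whereas the caenopore gene spp-4 (-2.14 ± 0.12) and the lysozyme gene lys-4 (-1.75 ± 0.11) fell.

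Detoxification genes did not move as families. Cytochrome P450 genes had 19 higher and 16 lower of 50, glutathione S-transferases 16 and 14 of 44, and UDP-glucuronosyltransferases 19 and 25 of 58. The signs of the 3 medians (0.04, 0.03 and -0.01) turned under another scaling. Single members moved far in each. The cytochrome P450 gene cyp-37B1 was at 2.304, 2.13 and 2.702 FPKM in mock and at 42.1, 48.4 and 45.8 after UV-B (3.999 ± 0.16), the glucuronosyltransferase gene ugt-18 at 0.397, 0.648 and 0.907 in mock and 21.8, 25.3 and 24.7 after UV-B (4.43 ± 0.20), and ugt-57 at 82.8, 86.4 and 82.6 in mock and 9.41, 8.99 and 9.86 after UV-B (-3.09 ± 0.14). Of 28 ABC transporters of the P-glycoprotein and MRP type 17 rose and 7 fell, 60.7% and 25.0% beside 36.6% and 37.0% of all genes. The 4 neighbouring genes pgp-5 (4.95 ± 0.13), pgp-6 (4.68 ± 0.10), pgp-7 (4.38 ± 0.10) and pgp-8 on chromosome X rose the most, pgp-5 from 4.19, 4.01 and 4.87 FPKM in mock to 133, 163 and 154 after UV-B. Nuclear hormone receptors, many of which control such enzymes, had 112 higher (56.0%) and 35 lower (17.5%) of 200, with a median of 0.34. They ran from nhr-74 (-3.36 ± 0.17) to nhr-112 (2.84 ± 0.11).

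In nucleotide excision repair 14 of 22 tested genes rose and 6 fell (median 0.33), 63.6% and 27.3% beside 36.6% and 37.0% of all genes. The largest rises were those of 2 genes of the branch that serves stalled RNA polymerases, followed by 2 genes of the kinase module of TFIIH. csb-1, which recognizes the stalled polymerase, was at 4.26, 4.67 and 3.99 FPKM in mock and at 19.4, 22.5 and 21.9 after UV-B (2.18 ± 0.09, limma adjusted p = 1.77e-09). uvs-1, the homolog of human UVSSA, which acts with CSB, was at 7.29, 7.596 and 7.46 in mock and 37.7, 37.7 and 37.6 after UV-B (2.26 ± 0.06). The third gene of this branch, csa-1, was at 2.52, 3.73 and 3.05 in mock and 4.61, 4.38 and 4.05 after UV-B (0.44 ± 0.13, limma adjusted p = 0.00873). By contrast xpc-1, the sensor of the genome-wide branch, was at 15.8, 15.5 and 14.7 FPKM in mock and at 12.3, 11.5 and 12.02 after UV-B and fell slightly (-0.35 ± 0.05, limma adjusted p = 9.83e-05). The shared factor gene xpa-1 rose (0.53 ± 0.08), from 20.4 to 29.5 FPKM.

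The subunits of TFIIH, the complex that opens the DNA around a lesion and also starts transcription, went in both directions. The kinase module genes cyh-1, for cyclin H, and cdk-7 rose from 18.8, 16.4 and 18.7 FPKM in mock to 58.3, 57.4 and 60.8 after UV-B (1.69 ± 0.06) and from 20.03, 21.2 and 20.99 FPKM in mock to 47.2, 48.3 and 46.02 after UV-B (1.17 ± 0.05). The helicase gene xpb-1 rose by 0.73 ± 0.06, whereas the second helicase gene xpd-1 was at 29.2, 29.7 and 29.9 FPKM in mock and at 10.7, 10.8 and 10.1 after UV-B (-1.45 ± 0.06, limma adjusted p = 1.65e-09). gtf-2H5 (-1.08 ± 0.12) and gtf-2H4 (-0.97 ± 0.10) fell as well. xpd-1 lay within a run of 5 neighbouring tested genes on chromosome III, hpo-29, Y50D7A.3, xpd-1, taco-1 and Y50D7A.1, that all fell by -1.14 to -2.26.

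**Figure D4:**
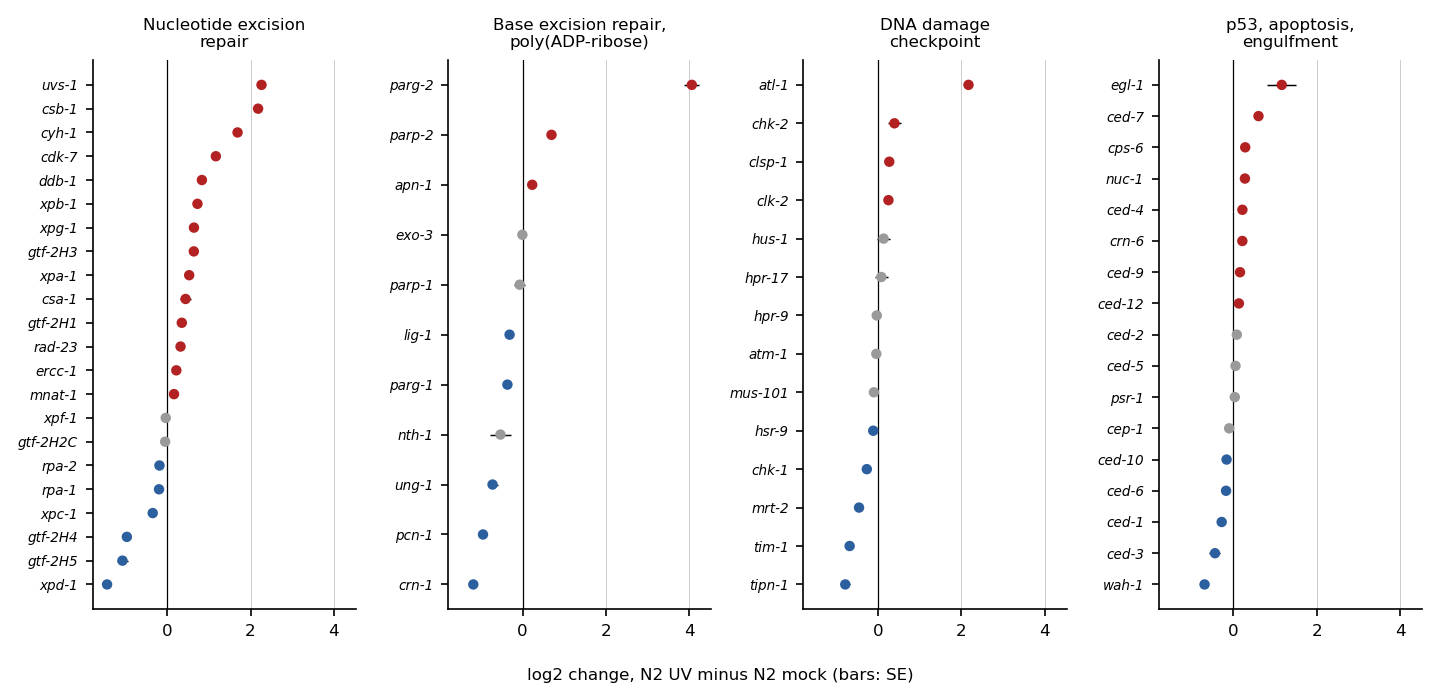
Log2 change of each tested gene in N2 after UV-B (x axis) with its SE, for nucleotide excision repair, base excision repair with poly(ADP-ribose) enzymes, the DNA damage checkpoint, and p53 with apoptosis and engulfment. Red points were called higher, blue lower and grey not called. The genes parg-2 (4.06), uvs-1 (2.26), csb-1 (2.18) and atl-1 (2.17) stand furthest to the right.

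Among the other repair pathways, 1 gene of poly(ADP-ribose) metabolism stood apart. parg-2, a glycohydrolase gene that removes poly(ADP-ribose), was at 0.494, 0.606 and 0.271 FPKM in mock and at 14.8, 16.1 and 15.1 after UV-B (4.06 ± 0.18, limma adjusted p = 2.22e-09), while its paralog parg-1 fell (-0.37 ± 0.05) and parp-1 was not called (-0.07 ± 0.13). Of 11 genes of base excision repair and poly(ADP-ribose) 3 rose and 5 fell, the latter led by the flap nuclease gene crn-1 (-1.19 ± 0.06) and the sliding clamp gene pcn-1 (-0.95 ± 0.04), which also serve replication. Of 26 homologous recombination genes 14 rose and 5 fell, 53.8% and 19.2% beside 36.6% and 37.0% of all genes. rad-50, of the complex that binds broken ends, was at 14.7, 15.6 and 14.8 FPKM in mock and at 48.3, 50.8 and 50.1 after UV-B (1.69 ± 0.04), and the cohesin-like genes smc-6 (1.15 ± 0.04) and smc-5 (0.79 ± 0.05) and the helicase gene rcq-5 (0.94 ± 0.05) also rose. The recombinase gene rad-51 fell by little (-0.20 ± 0.06, not called with equal sums). Under quantile normalization 9 of these genes were higher instead of 14, and 3 were lower instead of 5 with equal sums and without N2 mock 4 or N2 UV 1.

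Genes of damage bypass, end joining and mismatch repair went in both directions. The translesion polymerase gene polh-1, for the enzyme that copies past pyrimidine dimers, was at 7.53, 7.95 and 6.41 FPKM in mock and at 6.02, 6.64 and 7.43 after UV-B and was not called (-0.12 ± 0.09, limma adjusted p = 0.257), while rev-1 rose from 8.904 to 19.6 FPKM (1.09 ± 0.06). In end joining lig-4 (0.92 ± 0.06) and cku-80 (0.65 ± 0.05) rose, and cku-70 was called lower by a small amount (-0.14 ± 0.06, limma adjusted p = 0.0496) that was lost in 10 alternatives, among them those without N2 mock 1 or 2 and without N2 UV 1 or 2. Of 10 mismatch and crosslink repair genes 5 rose, fan-1 (0.90 ± 0.08) the most, and 4 fell, with msh-6 (-0.86 ± 0.05) and msh-2 (-0.60 ± 0.06) in the lead. The number that rose was 3 under quantile normalization and without N2 mock 1, N2 UV 1 or N2 UV 3. Over the 192 tested genes of the DNA-damage response as the study lists them, 77 rose and 59 fell (median 0.04, whose sign turned under quantile normalization), shares of 40.1% and 30.7% beside 36.6% and 37.0% of all genes. R03H10.6 (4.17 ± 0.12) rose the most in that list and nanp-1 (-1.87 ± 0.09) fell the most.

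The checkpoint kinase gene atl-1, the worm ATR, rose far more than the other checkpoint genes. It was at 21.3, 20.98 and 19.9 FPKM in mock and at 88.2, 98.9 and 98.5 after UV-B (2.17 ± 0.06, limma adjusted p = 5.41e-11), and the groups did not overlap. atm-1 was at 14.9, 14.9 and 15.2 FPKM in mock and 14.2, 14.4 and 14.9 after UV-B and was not called (-0.04 ± 0.04). The effector kinase gene chk-1 fell slightly (-0.27 ± 0.06), and the fork protection genes tim-1 (-0.68 ± 0.05) and tipn-1 (-0.79 ± 0.10) fell further. In all, 4 of 14 rose and 5 fell, 28.6% and 35.7% beside 36.6% and 37.0% of all genes.

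Most apoptosis genes changed by small amounts or were not called. The p53 gene cep-1 was at 8.93, 8.71 and 8.39 FPKM in mock and at 7.598, 7.83 and 8.72 after UV-B and was not called (-0.10 ± 0.09, limma adjusted p = 0.33). egl-1, a BH3-only gene that starts apoptosis and a target of p53, was at 0.786, 1.44 and 0.714 FPKM in mock and at 2.59, 3.03 and 2.596 after UV-B (1.16 ± 0.35, limma adjusted p = 0.0108), a call lost with the replicate number as a block. The second BH3-only gene, ced-13, did not pass the filter on low values. ced-4 (0.21 ± 0.06) and ced-9 (0.16 ± 0.04) rose by small amounts, the latter not called under quantile normalization, and the caspase gene ced-3 fell (-0.44 ± 0.13). Of 17 genes 8 rose, 5 under quantile normalization, and 5 fell. The engulfment gene ced-7 (0.60 ± 0.04) and wah-1, the worm AIF (-0.70 ± 0.04), changed most after egl-1.

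Most genes of DNA replication were lower, and those of the cell cycle fell in smaller shares. Of 41 replication genes 35 fell and 4 rose (median -0.59), 85.4% lower beside 37.0% of all genes. The replicative helicase gene mcm-2 was at 37.4, 39.5 and 38.1 FPKM in mock and at 18.2, 18.4 and 17.4 after UV-B (-1.07 ± 0.06), the clamp gene pcn-1 at 139, 134 and 143 in mock and 72.1, 70.9 and 71.2 after UV-B (-0.95 ± 0.04), and tyms-1, for thymidylate synthase, at 57.4, 62.1 and 62.2 in mock and 28, 27.7 and 28.7 after UV-B (-1.09 ± 0.07). Of 19 cyclins, CDKs and their regulators 10 fell (52.6%, median -0.17), including the cyclin D gene cyd-1 (-1.13 ± 0.12) and cdk-1 (-0.88 ± 0.06), and 4 rose, the CDK inhibitor genes cki-1 (0.49 ± 0.07) and cki-2 (0.46 ± 0.14, not called without N2 UV 1) among them. Kinetochore, centrosome and spindle genes had 33 of 55 lower (60.0%, median -0.25) and 7 higher (11 with equal sums), with the Aurora A gene air-1 at -1.11 ± 0.06 and the formin gene cyk-1 at 0.65 ± 0.06. Of 76 histone genes 40 fell and 7 rose, 12 under quantile normalization. Most are near-identical copies and their messages of the replicative kind lack a poly(A) tail, which the removal of ribosomal RNA retains. The linker histone variant hil-1 stood apart at 4.201, 6.53 and 5.89 FPKM in mock and 31.1, 35.2 and 30.5 after UV-B (2.46 ± 0.20). Of 8 DREAM subunit genes 3 rose and 4 fell (2 with libraries scaled to equal sums), from lin-53 (-0.97 ± 0.05) to lin-52 (0.51 ± 0.09).

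The largest subunit of RNA polymerase II rose with csb-1. ama-1 was at 82.5, 82.6 and 81.2 FPKM in mock and at 208, 229.6 and 224 after UV-B (1.42 ± 0.04, limma adjusted p = 1.29e-10). Of 12 subunit genes 6 rose, rpb-11 (0.79 ± 0.07) and rpb-5 (0.76 ± 0.06) next to ama-1, and rpb-4 fell (-0.502 ± 0.06). Splicing factor genes had 22 higher and 11 lower of 44. Of the SR protein genes rsp-2 (-0.95 ± 0.04), rsp-4 (-0.89 ± 0.06) and rsp-1 (-0.83 ± 0.04) fell the most, whereas prp-31 rose (0.74 ± 0.04).

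Insulin signalling and its output did not change as a block. The receptor gene daf-2 was at 44.3, 45.4 and 45.6 FPKM in mock and at 43.2, 41.7 and 41.4 after UV-B and was not called (-0.10 ± 0.05, limma adjusted p = 0.0923), though it was called lower under quantile normalization and in the N2 libraries alone. Its FOXO factor gene daf-16 was at 25.4, 25.8 and 26.9 FPKM in mock and 27.2, 32.01 and 28.9 after UV-B, a rise of 0.17 ± 0.07 (limma adjusted p = 0.0393) whose call was lost in 9 of 17 alternatives, including those without N2 mock 1 or 2 and without N2 UV 2 or 3. The kinase genes akt-2 (0.71 ± 0.05) and sgk-1 (0.61 ± 0.05) rose more clearly, and 10 of 17 pathway genes rose in all. The GATA-type factor gene egl-27, which acts with daf-16 in the response to UV, rose from 55.8 to 69.1 FPKM (0.31 ± 0.03). Of 26 insulin-like peptide genes 14 fell and 5 rose, 53.8% and 19.2% beside 37.0% and 36.6% of all genes. ins-27 was at 183, 176 and 170.1 FPKM in mock and at 34.2, 35.5 and 33.1 after UV-B (-2.35 ± 0.10) and ins-11 at 0.736, 0.596 and 0.660 in mock and 15.7, 8.14 and 11.98 after UV-B (3.37 ± 0.38). With no filter on low values 8 rose. Of 24 tested DAF-16 target genes 17 rose and 3 fell (median 0.39), 70.8% higher beside 36.6% of all genes. The metallothionein gene mtl-1 was at 20.8, 22.2 and 26.3 FPKM in mock and at 150.3, 152 and 163 after UV-B (2.73 ± 0.14), while sod-3, a frequently used target, was at 2.53 and 1.92 FPKM and was not called. GATA factor genes had 4 higher and 2 lower of 9, the gut factors elt-7 (0.92 ± 0.09) and elt-2 (0.77 ± 0.07) above and the seam cell factors elt-6 (-1.65 ± 0.10) and egl-18 (-1.15 ± 0.05) below.

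Autophagy genes were mostly higher, and of the heat shock genes more fell than rose. Of 30 genes of autophagy and the lysosome 22 rose and 4 fell (median 0.48), 73.3% higher beside 36.6% of all genes. The number lower was 2 with FPKM as deposited, with equal sums and without N2 UV 2. The cargo receptor gene sqst-1 was at 77.5, 77.9 and 83.02 FPKM in mock and at 254, 279 and 252 after UV-B (1.71 ± 0.08), and lgg-1, for the ATG8 protein that coats autophagosomes, at 435, 416 and 439 in mock and 925, 970.2 and 925 after UV-B (1.13 ± 0.07). Of 21 heat shock genes 12 fell and 4 rose. hsp-16.41 was at 16.6, 19.4 and 12.3 FPKM in mock and at 3.02, 2.82 and 2.58 after UV-B (-2.31 ± 0.18), and the small heat shock gene sip-1 rose (1.51 ± 0.13). Mitochondrial and endoplasmic reticulum chaperone genes had 13 lower and 8 higher of 24, with hsp-60 at -1.26 ± 0.06 and the factor gene dve-1 at 0.75 ± 0.09. Antioxidant genes had 12 lower and 7 higher of 24, and the extracellular superoxide dismutase gene sod-4 rose (1.67 ± 0.12). Of 33 proteasome subunits 30 fell and none rose (1 with FPKM as deposited, with equal sums, with no variance trend and without N2 UV 1), each by little, the furthest being -0.61 at rpn-9 (131 to 85.6 FPKM). Of 17 osmotic, hypoxia and metal genes 12 fell, gpdh-1 (-2.09 ± 0.12), which makes glycerol under osmotic stress, the furthest.

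Most genes of the respiratory chain were lower by small steps, and in the other lists of metabolism more genes fell than rose, some of them far. Nuclear subunits and assembly factors of the respiratory chain had 44 of 48 lower and 2 higher, a share of 91.7% lower beside 37.0% of all genes, with a median of -0.44 and no member beyond -0.94. The number higher was 1 without N2 mock 1 or 4, without N2 UV 1 or 2, and with the replicate number as a block. Of the 12 protein-coding genes of the mitochondrial genome 10 fell and 2 rose (median -0.41), and 1 rose without N2 mock 2 or without N2 UV 1. Glycolysis and gluconeogenesis had 17 lower and 3 higher of 22. ldh-1, for lactate dehydrogenase, was at 222, 218 and 239 FPKM in mock and at 114, 105 and 104 after UV-B (-1.07 ± 0.05). Fatty acid genes had 24 lower and 17 higher of 43, with opposite ends at acdh-1, an acyl-CoA dehydrogenase gene that went from 326, 355 and 365 FPKM in mock to 42.5, 40.1 and 39.5 after UV-B (-3.08 ± 0.10), and ech-9 (3.22 ± 0.13) and the desaturase gene fat-5 (2.85 ± 0.31). Of 15 one-carbon and phosphatidylcholine genes 9 fell, mel-32 (-1.66 ± 0.08) and the S-adenosylmethionine synthetase gene sams-1 (-1.32 ± 0.05) among them. pmt-1 and pmt-2, which methylate phosphoethanolamine in successive steps, parted, at 0.92 ± 0.05 and -0.996 ± 0.05. pmt-1 was at 259.5, 258 and 265 FPKM in mock and at 479.7, 514 and 491 after UV-B, and pmt-2 at 367, 366 and 368 in mock and 188, 182 and 181 after UV-B, without overlap of the groups in either gene.

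Ribosomal protein genes changed little and their calls moved with the scaling. Their median was -0.14 and 48 of 80 were called lower, 24 under quantile normalization, where 12 were higher. The count of lower genes was 17 without N2 mock 1, 20 without N2 UV 1, 31 without N2 UV 3 and 14 with the replicate number as a block. Apart from these stood rpl-24.2, at 149, 146 and 149 FPKM in mock and 378, 416 and 399.9 after UV-B (1.42 ± 0.05), which is annotated as a ribosomal protein and belongs to a type that acts in ribosome assembly, and rpl-41.1 (-1.13 ± 0.05).

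Transcripts of muscle and of neurons were mostly lower, those of the gut were even. In RNA of whole larvae fewer cells of a type and less RNA per cell cannot be told apart. Of 31 body wall muscle genes 25 fell and 3 rose (median -0.59), 80.6% lower beside 37.0% of all genes. The myosin gene unc-54 was at 694, 700.1 and 740.3 FPKM in mock and at 447, 444 and 406 after UV-B (-0.72 ± 0.05), and the giant titin-like gene ttn-1 at 90.5, 88.98 and 88.3 in mock and 41.3, 41.2 and 40.6 after UV-B (-1.11 ± 0.03). Those that rose were unc-112, for the kindlin of muscle attachments (0.69 ± 0.04), hlh-1 and cpn-3. The number that rose was 1 without N2 mock 2 or without N2 UV 1 and 5 with equal sums. The 3 muscle markers summed to 1288 to 1358 FPKM in mock and to 799.7 to 878 after UV-B. Genes of neuron function had 23 of 31 lower and 5 higher (median -0.77). The 4 neuron markers summed to 174.6 to 183.4 FPKM in mock and to 167.0 to 171.5 after UV-B. Of these markers 3 were lower, while snb-1 was higher (0.22 ± 0.06). The vesicular glutamate transporter gene eat-4 was at 21.96, 21.4 and 22.1 FPKM in mock and at 8.05, 7.59 and 9.15 after UV-B (-1.35 ± 0.06), and tdc-1, for tyrosine decarboxylase, at 15.7, 16.3 and 15.7 in mock and 4.54, 4.604 and 3.98 after UV-B (-1.75 ± 0.08). In touch receptor neurons 12 of 13 genes fell and none rose, led by the tubulin genes mec-7, from 82.3, 83.01 and 87.3 FPKM in mock to 29.8, 27.9 and 30.7 after UV-B (-1.501 ± 0.04), and mec-12 (-1.40 ± 0.05).

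Neuropeptide genes, which neurons also express, did not follow. They had 29 higher and 31 lower of 95, from nlp-24 (-1.58 ± 0.06) to nlp-76 (1.89 ± 0.27). Cilia genes had 14 lower and 5 higher of 44, 25 of 44 being not called, and 3 were higher under quantile normalization and without N2 mock 1. Pharynx genes had 5 higher and 6 lower of 14 (3 higher without N2 UV 2), and the pharyngeal myosin gene myo-2 fell by little (-0.12 ± 0.04), a call lost in 3 other scalings. Intestine genes had 10 higher and 10 lower of 27. In this tissue the aquaporin gene aqp-8 (-1.96 ± 0.08) and the cathepsin gene cpr-5 (-1.504 ± 0.04) fell and elt-7 (0.92 ± 0.09) rose. The intestinal markers summed to 392 to 417 FPKM in mock and to 483.0 to 526 after UV-B. Most of this sum was ifb-2 (352 FPKM in mock and 451 after UV-B, called higher). elt-2 was higher as well, and ges-1 was not called. Epidermis and seam genes had 13 of 20 lower and 3 higher. The epidermal factor gene lin-26 fell by little (-0.20 ± 0.05, not called with equal sums) and elt-3 was not called (-0.14 ± 0.06), while dpy-7 and wrt-10 were nearly lost.

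Germline genes stood at low levels. An L1 larva has only its primordial germ cells, and whether that sets the levels was not tested. Of 29 tested genes 19 rose and 2 fell (median 0.35), 65.5% higher beside 36.6% of all genes. Under quantile normalization 12 rose, and 7 at a minimum mean of 5 FPKM, where fewer were tested. Of 37 listed genes 29 passed the filter, some by their level after UV-B, which may have raised the share that rose. An example is oma-1, with means of 0.553 FPKM in N2 mock and 0.439 in lin-52 mock. The RNA-binding protein genes pos-1 (1.54 ± 0.28), from 1.105, 1.16 and 1.37 FPKM in mock to 4.29, 4.98 and 4.12 after UV-B, and oma-1 (1.36 ± 0.18) rose the most, and mes-4 (-0.76 ± 0.06), for a histone methyltransferase, fell the most. The P granule marker glh-1 was at 12.2, 12.3 and 11.7 FPKM in mock and at 13.3, 14.4 and 13.9 after UV-B. Of 4 tested genes of embryos, adults and sperm 2 rose, rme-2 (0.81 ± 0.13) and chs-1 (0.60 ± 0.12), and 0 fell, 1 under quantile normalization and without N2 mock 1. Genes that serve as references in the study's qPCR were close to their mock level. iscu-1 was not called (-0.09 ± 0.04) and eif-3.C fell by little (-0.26 ± 0.06). vha-6 was at 354, 333 and 348 FPKM in mock and listed at 0, 334 and 323 after UV-B, where the 0 of N2 UV 1 may be a failed estimate. Without N2 mock 4, N2 UV 2 or N2 UV 3, 2 of the 3 were called lower.

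Long genes were lower more often than short ones. Of the 191 tested genes with an annotated span, introns included, above 20 kb, 77.0% fell and 12.6% rose (median -0.52). Between 10 and 20 kb 53.9% fell and 26.6% rose (median -0.21), and between 5 and 10 kb 46.5% and 32.4% (median -0.13). Below 5 kb the medians lay between -0.03 and 0.09, and 31.4% to 34.0% of the genes fell. By the exon length of the longest transcript, 76.3% of the 38 genes of 10 to 20 kb fell and 15.8% rose (median -0.27). Of the 285 genes of 5 to 10 kb 52.3% fell and 30.9% rose (median -0.16). Of the 8 genes above 20 kb 6 fell and 0 rose (median -0.68). Below 5 kb of exon length 35.4% to 40.0% fell. Whether span or exon length carries the trend was not tested. By span, the share lower above 20 kb was 73.9% of 157 among genes at a mean of 10 to 100 FPKM. Among genes on no list of muscle or neurons it was 76.1% of 184. In both sets the share lower rose from the span class of 2 to 5 kb to that above 20 kb. These are descriptions over genes, which are not replicates. Long genes are also transcribed in particular tissues, and the part of tissues in these shares was not tested. Of the 191 genes above 20 kb only 7 are on the muscle and neuron lists, so leaving them out could change the share by little. The cadherin gene hmr-1, with a span of 58913 bases, was at 86.7, 87.02 and 87.2 FPKM in mock and at 49.1, 48.2 and 47.2 after UV-B (-0.85 ± 0.04). daf-2 spans 46333 bases and was not called.

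**Figure D5:**
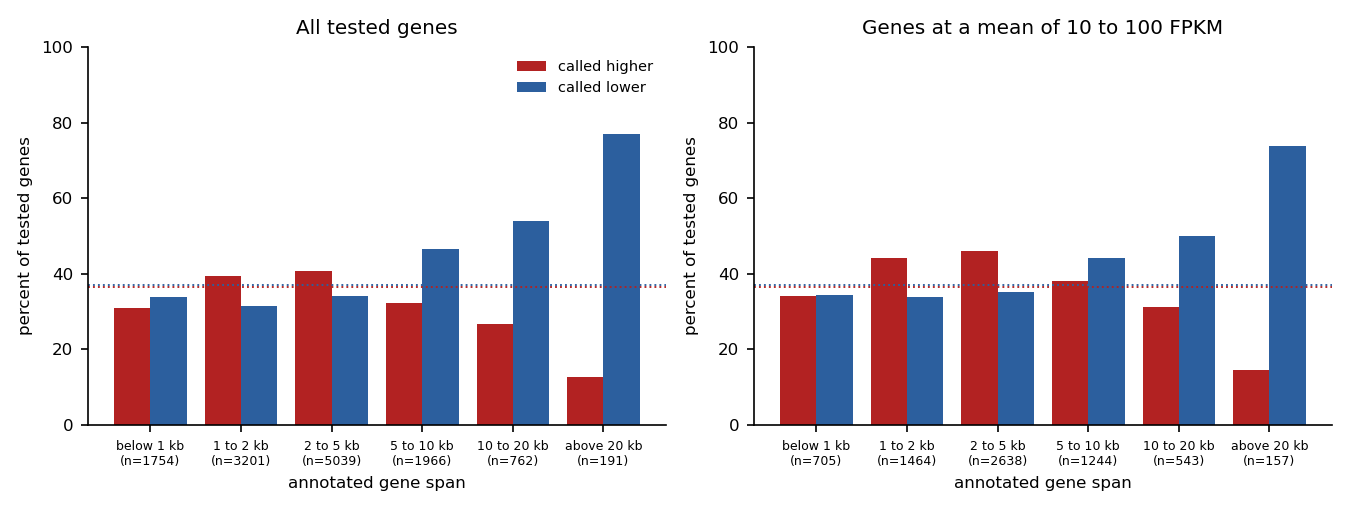
Percent of tested genes called higher (red) and lower (blue) in N2 after UV-B by annotated gene span (x axis, n is the number of tested genes), for all tested genes (left) and for genes at a mean of 10 to 100 FPKM over the 6 N2 libraries (right). Dotted lines mark all tested genes, 36.6% higher and 37.0% lower. The share of genes called lower rises from the class of 2 to 5 kb to the class above 20 kb in both panels.

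Some of the genes that rose were neighbours. Runs of at least 4 adjacent tested genes that were all called and at least 2-fold higher numbered 26 and held 131 of the 1452 genes at this fold, 12 of the runs lying on chromosome V, and runs of lower genes numbered 8 and held 39. The longest runs of higher genes had 9 members. That on chromosome III from 1271993 to 1315210 in WBcel235 held F-box genes from fbxa-29 to fbxa-80, with log2 changes between 1.48 and 4.16. On chromosome V a run of 7 genes from F09C6.3 to fbxa-44 rose by 2.93 to 5.43, and a run of 5 with C49G7.12 and irg-2 by 3.44 to 6.39. On chromosome X the 4 genes pgp-5 to pgp-6 rose by 4.38 to 6.20. Among runs that fell, the lipocalin genes lpr-3, lpr-6, lpr-5 and lpr-4 on chromosome X lay beside C09F12.2 (-5.18 to -1.54), and 6 pud genes on chromosome V fell by -3.14 to -2.03. Some of these neighbours are near-identical copies, among which the counting may have divided fragments. By chromosome, 42.8% of the 2671 genes on V rose and 30.8% fell, and on X 31.7% of 1894 rose and 44.0% fell.

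The response of N2 was set beside that of lin-52 larvae to find where the strains differ. The difference between the UV effects was called in 1503 of 12913 genes (11.6%), 702 with a more positive and 801 with a more negative effect in lin-52 larvae. The N2 effect enters this difference, so a large N2 effect by chance makes a smaller effect in the mutant more likely. The count was 961 without N2 mock 1, 844 without N2 UV 2, 979 without N2 UV 3 and 837 with the replicate number as a block. Of the 12 largest decreases none differed between strains by this test. Some, such as dpy-7, fell close to the constant added before the log2, which limits how large their effect can appear. The SE of the difference was 0.28 for lpr-6, 0.3 for mlt-8 and 0.32 for sym-1, beside a median of 0.118 over tested genes. The lack of a call therefore does not show that these decreases were equal in the strains. For dpy-7 the effects were -5.94 ± 0.32 in N2 and -5.65 ± 0.32 in lin-52 larvae (limma adjusted p = 0.727 for the difference). Of the 12 largest increases 7 were smaller in lin-52 larvae, those of fipr-26, pgp-8, F09C6.3, F43C1.7, C49G7.12, T26H5.9 and the numr-1 gene WBGene00017267. fipr-26, which stood at a mean of 3.01 FPKM in lin-52 mock beside 0.851 in N2 mock, rose by 3.90 ± 0.10 there (limma adjusted p = 5.86e-06). atl-1 (1.72 ± 0.06, limma adjusted p = 0.00657) and csb-1 (1.40 ± 0.09, limma adjusted p = 0.00575) also rose less in lin-52 larvae, and for xpd-1 the effect there was -1.46 ± 0.06 (limma adjusted p = 0.947 for the difference).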

How the data were processed

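The RNA of 12 libraries was sequenced, 3 in each of N2 mock, N2 UV, lin-52(n771) mock and lin-52(n771) UV, from L1 larvae after depletion of ribosomal RNA. Per the labels, 4 samples per group were made and 3 taken after a check of RNA quality. The authors deposited a table of FPKM made with Tophat 2.0.10 and Cufflinks 2.1.1 on gene models of Ensembl release 85. The submitters also name DESeq2, which needs counts and could not be run on this table. The genome build is not given in the sources used here. Of 46245 identifiers 45990 matched the Ensembl release 115 annotation of WBcel235, from which gene names, spans and positions were taken, and 255 did not.

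FPKM were divided by median-ratio size factors over the 14130 protein-coding genes with no 0 in any library. Protein-coding genes averaging 1 FPKM or more were tested on log2(FPKM + 0.5) in limma 3.58.1 (R 4.3.3) with 4 group means over all 12 libraries, a trend in the prior variance and Benjamini-Hochberg adjustment, and called below 0.05. The average was taken over all 12 libraries, irradiated ones included, so a gene low in mock could pass by its level after UV-B. The UV effects of the strains were compared by an interaction contrast in the same fit. Shares of FPKM were compared by exact permutation of libraries. The fit was run on simulated data with few changed genes and without the scaling step, so that run says nothing about the scaling. An exact 0 in such a table can be a failed estimate, and 202 tested genes had at least 1 such library in N2. Read totals are unknown, so no counting interval can be given. Nothing in the labels says that the libraries of a group come from separate cultures, so p-values measure the spread between these libraries. N2 mock and N2 UV share the numbers 1 and 2 only, the labels do not say that a number marks a batch, and the deviations of same-numbered N2 libraries correlated at 0.18 and 0.12, so the samples were not treated as pairs.

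Genes are named by this rule: the 12 largest increases and decreases among called genes averaging 5 FPKM or more, no overlap between groups and no library at 0, up to 4 called members with the largest change of each list, and 16 repair, checkpoint, apoptosis and insulin genes whatever their result. Further genes were named after their values were seen, namely B0563.9, C09F12.2, F39E9.14, Y50D7A.1, Y50D7A.3, cdk-7, cki-1, cki-2, clec-1, clec-170, cpn-3, cutl-14, cyk-1, dpy-31, dpy-8, drh-1, dve-1, egg-6, elt-3, fbxa-29, fbxa-44, fbxa-80, glh-1, grh-1, gtf-2H4, gtf-2H5, hlh-1, hmr-1, hpo-29, ifc-2, iscu-1, lin-26, lpr-4, lpr-5, lys-4, mes-4, myo-2, nanp-1, nekl-2, nekl-3, nhr-25, nhr-265, nhr-41, pals-22, pals-23, pals-24, pals-25, parg-1, parp-1, pmk-1, pmt-1, pmt-2, prp-31, rad-51, rpb-4, sip-1, sod-3, spp-4, taco-1, ugt-57, unc-112, unc-54, vha-6 and xpb-1. The genes snb-1, ifb-2, ges-1 and act-5 are named as members of the sets of cell type markers. Members and lists were chosen with earlier results of these data known. Of the list entries 12 matched no gene name. Alternatives were other scalings, pseudocounts and filters, the N2 libraries alone, no variance trend, the replicate number as a block and each N2 library left out, and, chosen after seeing the data, all biotypes together, and the span classes without muscle and neuron genes and at 10 to 100 FPKM.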

Additional observations from a re-analysis of the deposited data

Results flagged for a closer look

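Of the 1503 genes whose UV effect differed between the strains, only those named in the text are given here. Each is given by the difference, lin-52 minus N2, on the log2 scale (limma interaction, adjusted p below 0.05). A negative value for a gene that rose means a smaller rise, or a fall, in lin-52 larvae, and the N2 effect enters each difference. In 1387 of the 1430 genes called both in N2 and for the difference, the difference had the sign opposite to the N2 effect. Genes that changed direction, such as ddn-1, are among them. Taking only genes called in N2 favours this side. No explanation of these differences was tested.

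Among these named genes the furthest values were those of 2 neighbouring genes of the intracellular pathogen response, and the other genes were not ranked. ddn-1 differed by -3.37 and B0507.8 by -3.11, and their effects in lin-52 larvae were -0.73 ± 0.17 and -0.69 ± 0.07, beside 2.64 ± 0.17 and 2.42 ± 0.07 in N2. Their levels already differed without UV-B. ddn-1 averaged 57.6 FPKM in lin-52 mock and 0.895 in N2 mock, and 34.6 and 7.96 after UV-B, and B0507.8 averaged 56.4 and 0.730 in mock and 34.7 and 6.08 after UV-B. In the same response fbxa-158 differed by -1.15, cul-6 by -1.04 and pals-23 by -0.24. Among infection genes fipr-26 differed by -2.45, fipr-24 by -1.01 and fbxa-37 by -0.57. The p38 pathway genes cebp-1 (-0.49), fshr-1 (-0.48), tir-1 (-0.47) and zip-2 (-0.32) all rose less in lin-52 larvae. B0563.9 (-2.07) and cnc-11 (-1.83) were listed at 0 in N2 mock, so that their values depend on the pseudocount.

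Some pumps and enzymes of detoxification rose less as well, with pgp-5 at -1.16, pgp-6 at -0.88, pgp-8 at -0.76, pgp-7 at -0.59, ugt-18 at -1.19 and cyp-37B1 at -0.81. Others that rose had no called difference, among them gst-24 (2.52 ± 0.06 in N2 and 2.44 ± 0.06 in lin-52 larvae, limma adjusted p = 0.618 for the difference). Of the other large increases F43C1.7 differed by -1.37, T26H5.9 by -0.98, F09C6.3 by -0.91, C49G7.12 by -0.66 and the numr-1 gene WBGene00017267 by -0.62. The stress genes mtl-1 (-1.13), sod-4 (-0.72) and sqst-1 (-0.51) followed.

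In DNA repair the difference was -0.78 for uvs-1, -0.78 for csb-1, -0.50 for cyh-1 and -0.40 for cdk-7. It was -0.54 for rad-50, -0.43 for fan-1, -0.33 for lig-4 and -0.23 for smc-6, whereas smc-5, which rose more in lin-52 larvae, had 0.28. The checkpoint gene atl-1 differed by -0.46. atm-1 differed by -0.42, being not called in N2 (-0.04 ± 0.04) and lower in lin-52 larvae (-0.46 ± 0.04). The engulfment gene ced-7 differed by -0.21.

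Smaller rises in lin-52 larvae were also found for sma-4 (-0.42), akt-2 (-0.40), sgk-1 (-0.31), dpy-31 (-0.44), cyk-1 (-0.32), pmt-1 (-0.26) and rpl-24.2 (-0.26). tyms-1 fell further in lin-52 larvae (-0.37).

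Genes that fell in N2 fell less, or rose, in lin-52 larvae where the difference is positive. In metabolism and the gut these were acdh-1 (0.66), ldh-1 (0.44), pmt-2 (0.34), aqp-8 (0.51), cpr-5 (0.26), spp-4 (0.66), clec-1 (0.38) and nanp-1 (0.47). In replication and chromatin they were mcm-2 (0.31), pcn-1 (0.35), lin-53 (0.38) and mes-4 (0.41). In neurons and muscle they were tdc-1 (0.61), eat-4 (0.39) and mec-7 (0.28). myo-2 differed by 0.23, falling in N2 (-0.12 ± 0.04) and rising in lin-52 larvae (0.10 ± 0.04). The others were lon-1 (0.57), let-268 (0.58), hsp-60 (0.44), rsp-4 (0.47), rsp-2 (0.27), rpl-41.1 (0.35) and hpo-29 (0.35).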

How the results depend on the processing

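The counts of genes higher and lower after UV-B in N2 stayed within 1.5 times their value in all 17 alternatives, and between 93.7% and 99.9% of the calls that could be compared were kept with the same direction. The genes higher numbered 4314 under quantile normalization and 5214 with equal protein-coding sums, those lower 5075 and 4213, and 7 calls took the opposite direction under quantile normalization. With no filter 5296 of 18565 genes were higher and 5006 lower, and with all biotypes together 4955 of 15944 and 4817. Leaving out a library gave 4472 to 4557 genes higher and 4539 to 4578 lower. The cause of these shifts was not tested.

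The replicate number as a block gave 4517 genes higher and 4567 lower, and of the genes named in the text only egl-1 and hlh-1 lost their call. With the block 14 ribosomal protein genes were lower, 3 mismatch and crosslink repair genes, 1 respiratory chain gene and 3 cilia genes were higher, and no other list count moved by over 1.5 times. The pairing is not stated in the labels. The count of genes whose UV effect differed between the strains, 1503, was 837 with the block and between 844 and 1418 when a library was left out, the lowest being that without N2 UV 2. With 1 library fewer the fit has fewer samples.

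Of 312 called genes that the rule or the text names, 18 lost their call in at least 1 of the 17 alternatives and 0 changed direction. Of the list counts 90 of 2176 moved by over 1.5 times, in 29 of 64 lists, most of them small counts. Precision is lowest for genes near the filter, and depth is known in relative terms only.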

Other observations

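Gene families that are on no list were looked through by the first part of their names, and those given here were chosen after their values were seen, without a test. Among all name families with at least 10 tested members, 17 had over 60% of the members higher and 25 over 60% lower. Nucleoporin genes (npp), which build the pores of the nuclear envelope, had 17 of 25 higher and 4 lower with a median of 0.78. Genes with MATH domains, some of which serve as substrate adaptors of ubiquitin ligases, had 16 of 17 (math) and 19 of 28 (bath) higher, with medians of 0.72 and 0.48. Of 15 chitinase-like genes (chil) 11 were higher and 4 lower, with a median of 0.80.

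Receptors of the nervous system stood on the other side. Neuropeptide receptor genes (npr) had 32 of 40 lower and 3 higher with a median of -0.80, ligand-gated ion channel genes (lgc) 26 of 36 lower and 2 higher with a median of -0.69, and FMRFamide receptor genes (frpr) 12 of 18 lower and 1 higher with a median of -0.82. Among other families the globin genes (glb) had 22 of 34 lower (64.7%, median -0.68). The small-subunit mitochondrial ribosomal protein genes (mrps) had 22 of 29 lower (75.9%, median -0.43).

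RNA other than that of protein-coding genes was tested in a fit with all biotypes, chosen after seeing the data. In that fit 35.3% of the protein-coding genes were higher and 35.9% lower. Of 430 pseudogenes 39.1% were higher, a share near that of protein-coding genes, and 9.30% lower (median 0.36). Of 82 long intergenic RNAs 28.0% were higher and 9.76% lower, of 95 small nuclear RNA genes 29.5% and 1.05%, and of 54 antisense RNAs 25.9% and 5.56%. Of 1887 other noncoding RNAs 5.67% were higher and 4.03% lower, of 35 miRNA genes 2.86% each way, and of 80 tRNA genes none were higher and 3 lower. Small nucleolar RNAs took 7.93%, 7.49% and 8.95% of the FPKM in mock and 10.2%, 10.6% and 11.03% after UV-B, without overlap (two-sided exact permutation test, p = 0.1, the smallest that 3 against 3 libraries allow). Of 233 tested small nucleolar RNA genes 10.3% were higher and 4.29% lower, with a median of 0.02.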
